A study of Bos indicus with 12 samples.

Results

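The comparison described here set 3 ECP-treated cows that were later pregnant against 3 ECP-treated cows that were later non-pregnant, out of 12 cows whose endometrium was sequenced. The 6 cows were taken by their treatment and pregnancy labels. The study had selected the sequenced cows for alike follicle size and progesterone. All were multiparous, suckled, anestrous Nelore cows (Bos indicus). Each had received estradiol benzoate with an intravaginal progesterone (P4) device, cloprostenol when the device was taken out, and buserelin, a GnRH analog, with timed insemination. At device removal these 6 cows also received 1 mg of estradiol cypionate (ECP), an estradiol ester that acts for longer than estradiol itself, and they had been picked among cows that displayed estrus. The other 6 cows (CON) had the same protocol without ECP and had not displayed estrus, and 3 of them were later pregnant. Endometrium was biopsied on day 6 after GnRH from cows with a new corpus luteum, so the outcome was diagnosed after the tissue was taken. Each library came from a different cow.

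The endometrium is the lining of the uterus, made of luminal and glandular epithelium over a stroma that holds vessels and leukocytes. Estradiol around estrus drives its cells to divide, and the progesterone of the new corpus luteum then turns it to a secretory state, in which the glands feed the embryo before it attaches. On day 6 the embryo is still small and free in the tract, and the biopsy came from the body of the uterus. The question was whether the endometrium of treated cows already differed at that time according to whether the pregnancy would later be found.

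The 6 libraries held 8637917 to 15015055 counts and 16571 to 16977 gene IDs with at least 1 count. The level of a gene is its normalized count, the raw count over the cow's DESeq2 size factor. Genes were tested where the mean over the 6 ECP cows was above 5, which kept 15139 of 24616 gene IDs. A gene symbol could be given to 123 of these, all from the study's list of genes that differed between ECP and CON, a list made on these same cows. The symbols therefore carry no independent evidence on ECP, and the tissue label was not checked against cell type markers here. The libraries fall into a higher and a lower class by the share of reads mapped. The higher class holds D160 and X156 of the pregnant cows and E0952 of the non-pregnant cows, and the lower class holds E1010, B0646 and C317. The part of this class in any difference was not tested beyond fits with the class as a term, whose value is given for each named gene that it moved by over 1.5 times, and for a few others.

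Pregnant and non-pregnant ECP cows did not form separate groups in the whole transcriptome. The first principal component held 29.4% of the variance and the second 24.9%, and the groups overlapped on both. The rank correlation of normalized counts between cows of different outcome had a median of 0.970, against 0.969 within the pregnant cows and 0.976 within the non-pregnant cows. The pregnant cows X156 and E1010 were the least like the others, with median correlations of 0.965 and 0.968. The gene-wise SD on the log2 scale had a median of 0.24 in the pregnant cows and 0.22 in the non-pregnant cows.

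**Figure D1:**
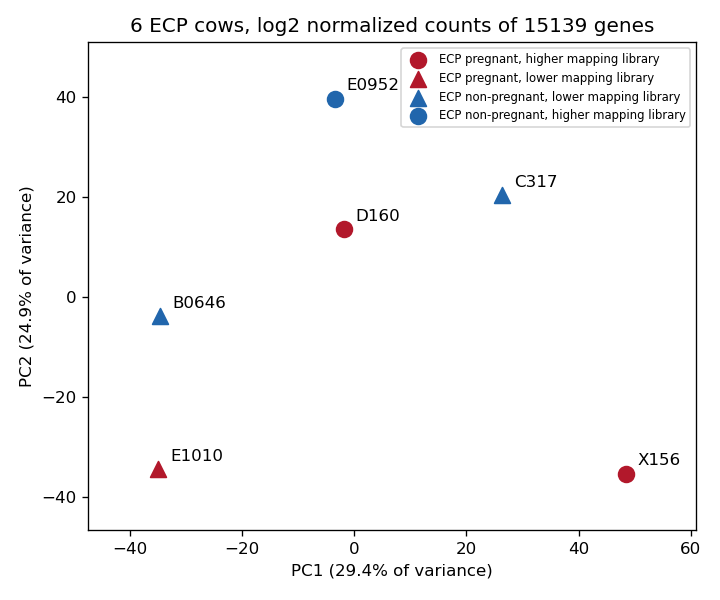
First and second principal components (PC1 with 29.4% and PC2 with 24.9% of the variance) of log2 normalized counts in the 6 ECP cows, each point a cow, coloured by later outcome and shaped by mapping class of the library. E1010 and X156, both pregnant, lie at opposite ends of PC1, and D160, also pregnant, lies among the non-pregnant cows.

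Circulating progesterone at the biopsy was 4.07, 4.09 and 3.77 ng/mL in the pregnant cows and 4.73, 3.16 and 3.05 ng/mL in the non-pregnant cows. The highest and the lowest values both belonged to non-pregnant cows, so the groups overlapped. The means were 3.98 ± 0.179 ng/mL (SD, n = 3) and 3.65 ± 0.940 ng/mL (SD, n = 3), and a two-sided exact permutation test of their difference of 0.33 ng/mL gave p = 0.6, where 3 against 3 cows cannot go below 0.1. Progesterone was among the criteria by which the study selected these cows, and it reports similar levels for ECP and CON, not by outcome. With cows so selected and 3 against 3, the test does not tell whether progesterone differs by outcome.

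No gene passed an adjusted p of 0.10 between pregnant and non-pregnant ECP cows in edgeR's quasi-likelihood test, a share of 0%, and the lowest adjusted p was 0.988. The same test gave an unadjusted p under 0.05 for 736 genes, or 4.86% of those tested, where 757 would be expected with no difference in any gene. Of the 736, 423 were higher and 313 lower in the pregnant cows. With limma voom 0 genes passed and 652 had an unadjusted p under 0.05. DESeq2 called 24 genes, or 0.159%, with 15 higher and 9 lower in the pregnant cows, and 817 at an unadjusted p under 0.05. None of the 24 has a symbol here, so what they encode cannot be said. In such bulk tissue, fewer cells of a type and less RNA per cell cannot be told apart.

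Most genes lay close to the same level in both outcomes. The median absolute log2 fold change was 0.16, and 86.7% of genes lay within 0.5 of 0. Differences beyond 1 on the log2 scale were found for 354 genes higher and 322 lower in the pregnant cows, and these had a median level of 19.3 normalized counts against 304.9 over all genes. Of the 676 genes beyond 1, 541 were among the 3785 genes with the lowest levels, at 90.8 normalized counts or less, and 12 among the 3785 with the highest, at 766 or more. The larger differences thus lay mostly among genes of low level.

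**Figure D2:**
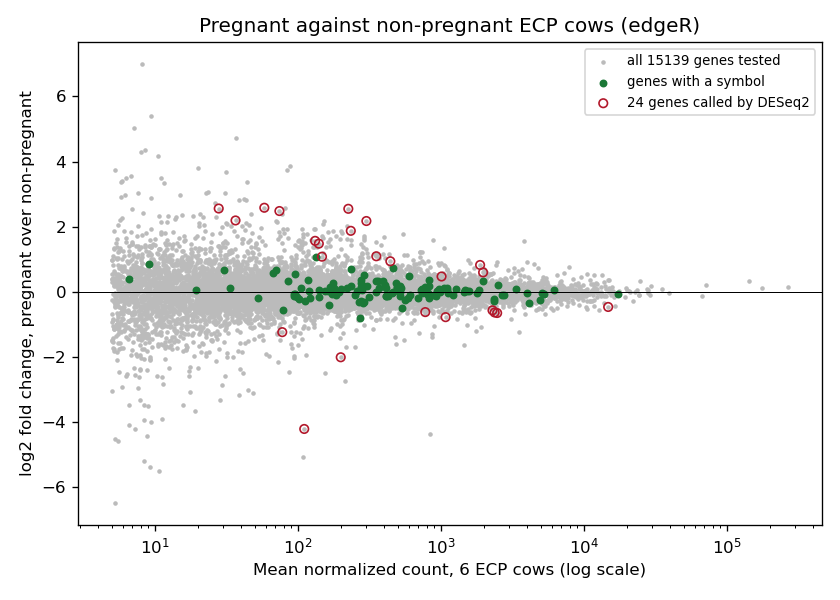
log2 fold change of pregnant over non-pregnant ECP cows from edgeR against the mean normalized count (log scale), with each grey point 1 of 15139 genes, green points genes with a symbol and red circles the 24 genes called by DESeq2. The spread narrows toward higher levels, and the green points lie near 0.

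The 3 pregnant cows all lay above or all below the 3 non-pregnant cows for 1463 genes, or 9.66% of those tested. With no difference by outcome in any gene, a share of 0.1 would be expected for 3 against 3 cows. All pregnant cows were higher for 716 genes (4.73%) and lower for 747 genes (4.93%). Of the 24 genes that DESeq2 called, 23 were among these 1463, and all 24 had an unadjusted edgeR p under 0.05. Their log2 fold changes in edgeR ran from 0.47 to 2.58 in the genes higher and from -4.21 to -0.47 in those lower. The value of -4.21 was that of ENSBTAG00000001785, the called gene whose groups overlapped. It had 13.0, 12.5 and 8.33 normalized counts in D160, E1010 and X156, and 224, 7.90 and 402 in B0646, C317 and E0952.

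The gene IDs of lowest p in each direction had groups that did not overlap, which their selection by p favours. ENSBTAG00000019067 had 198, 219 and 187 normalized counts in the pregnant cows D160, E1010 and X156, and 104, 89.5 and 92.7 in the non-pregnant cows B0646, C317 and E0952. The lowest pregnant cow was well above the highest non-pregnant cow, and the log2 fold change was 1.08 (SE 0.18). ENSBTAG00000007268 had 425, 418 and 608 in the pregnant cows against 234, 236 and 212, a log2 fold change of 1.09 (SE 0.18). Lower in the pregnant cows was ENSBTAG00000006607, with 1796, 1871 and 1904 against 2634, 2879 and 2766, or -0.57 (SE 0.09). The same held for ENSBTAG00000000559, with 1899, 2097 and 1803 against 3016, 3233 and 2874, or -0.65 (SE 0.11). These 4 were called by DESeq2 with adjusted p between 0.0001 and 0.00161, and in edgeR each had an adjusted p of 0.988. The sources used here give no symbol for them. In CON cows the log2 fold changes of the same 4 were -0.22, 0.27, 0.11 and 0.34, all with overlapping groups.

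Among the 123 genes with a symbol, 70 were higher and 53 lower in the pregnant ECP cows, with a median log2 fold change of 0.03 against 0.00 over all genes. The log2 fold change was within 0.5 of 0 for 111 of them. An unadjusted p under 0.05 was found for 7, or 5.69%, against 4.86% of all genes, and the groups did not overlap for 17, or 13.8%, against 9.66%. Of the 68 symbols that the study listed as higher in ECP, 42 were higher and 26 lower in the pregnant cows. Of the 55 listed as lower, 28 were higher and 27 lower. The adjusted p in edgeR was 0.988 or more for each of the genes named in what follows, so each value is given as a description. The functional lists and their members were chosen with earlier results of these data known. Counts and medians by list are therefore descriptions too.

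**Figure D3:**
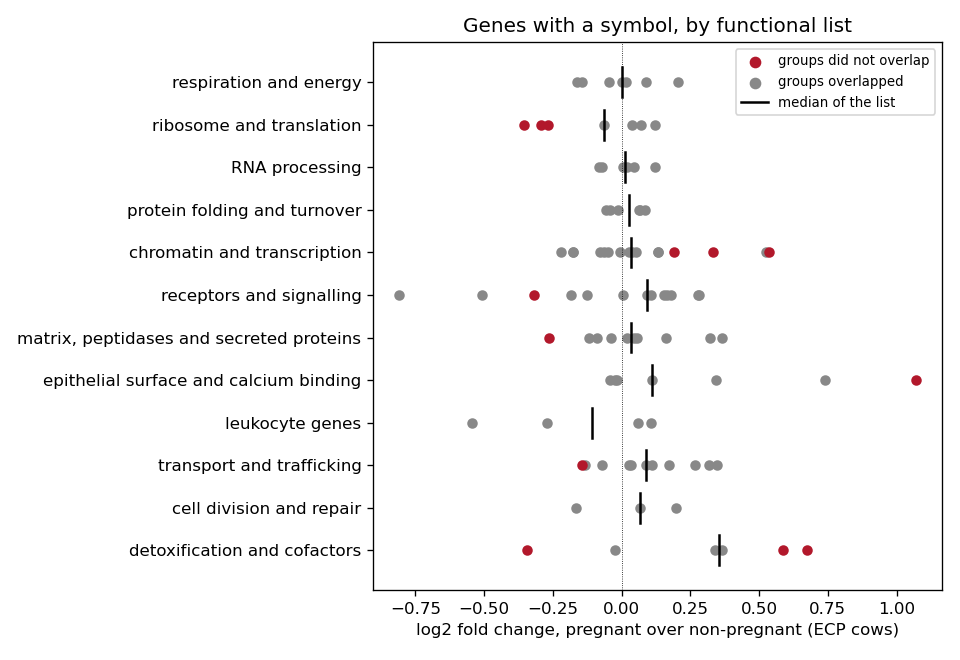
log2 fold change of pregnant over non-pregnant ECP cows for the genes with a symbol that belong to a functional list, by list. Each point is a gene (red where the 3 and 3 cows did not overlap) and the black bar the median of the list. Genes with a symbol that are in no list are not shown. Medians lie between -0.11 for the leukocyte genes and 0.35 for detoxification and cofactors.

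Of the 7 genes of ribosome and translation, 3 had all pregnant cows lower and 0 all higher. Groups were apart in either direction for 9.66% of all genes and 13.8% of those with a symbol. RPL39, a protein of the large subunit, had 3134, 4077 and 3687 normalized counts in the pregnant cows and 4840, 4987 and 4136 in the non-pregnant cows, a log2 fold change of -0.36 (SE 0.14). RPS27, of the small subunit, had 1851, 2305 and 2244 against 2767, 2616 and 2468, or -0.29 (SE 0.12). RPL22, also of the large subunit, had 4120, 4441 and 5002 against 5346, 5951 and 5053, or -0.27 (SE 0.12). In RPL22 the gap between the groups was narrow, since X156 lay just under E0952. Over the list, 3 genes were higher and 4 lower, with a median of -0.06 against 0.00 over all genes. The other 4 members had overlapping groups, and no member was above 0.12. Ribosomal protein genes have many near-identical copies in the genome, so their levels are uncertain where reads were shared with a copy.

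Of the 16 genes of chromatin and transcription, 3 had all pregnant cows higher and 0 all lower. Groups were apart in either direction for 9.66% of all genes and 13.8% of those with a symbol. TET3, which oxidises methylated cytosine in DNA, had 126, 118 and 96.2 normalized counts in the pregnant cows and 83.2, 83.4 and 68.4 in the non-pregnant cows, a log2 fold change of 0.53 (SE 0.22). ASXL1 and ASXL2 are paralogs that serve as partners of a histone H2A deubiquitinase. ASXL1 had 876, 906 and 890 against 815, 740 and 791, or 0.19 (SE 0.10). The cows of each outcome were close together in ASXL1, and the difference was small. ASXL2 had 372, 413 and 437 against 263, 363 and 346, or 0.33 (SE 0.16), and 0.21 without B0646. EZH2, the methyltransferase of histone H3 lysine 27, reached a similar log2 fold change of 0.53 (SE 0.30) with groups that overlapped, at 236 to 411 in the pregnant cows and 161 to 306 in the non-pregnant cows, and it was 0.30 without C317. Over the list, 9 genes were higher and 7 lower, with a median of 0.03.

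The epithelial list held the largest difference among the genes with a symbol. UPK3BL, a uroplakin-like membrane protein, had 187, 238 and 121 normalized counts in the pregnant cows and 86.1, 73.7 and 100.02 in the non-pregnant cows, a log2 fold change of 1.07 (SE 0.29). It was the 1 gene with a symbol beyond 1 on the log2 scale. KRT9, a type I keratin, had 573, 103 and 1073 against 183, 568 and 300.1, with pregnant cows at both ends of the range. Its log2 fold change of 0.74 (SE 0.74) became -0.11 with the mapping class in the model. CLIC5, a chloride intracellular channel protein, had a log2 fold change of 0.34 (SE 0.32), which became 0.05 with the class. S100G, a calcium-binding protein induced by steroids in the uterus, was added after its values were seen. Its mean was 5076 ± 1172 (SD, n = 3) in the pregnant cows and 5241 ± 2329 (SD, n = 3) in the non-pregnant cows, a log2 fold change of -0.04 (SE 0.31), which is within the spread of either group and became -0.15 with the mapping class.

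**Figure D4:**
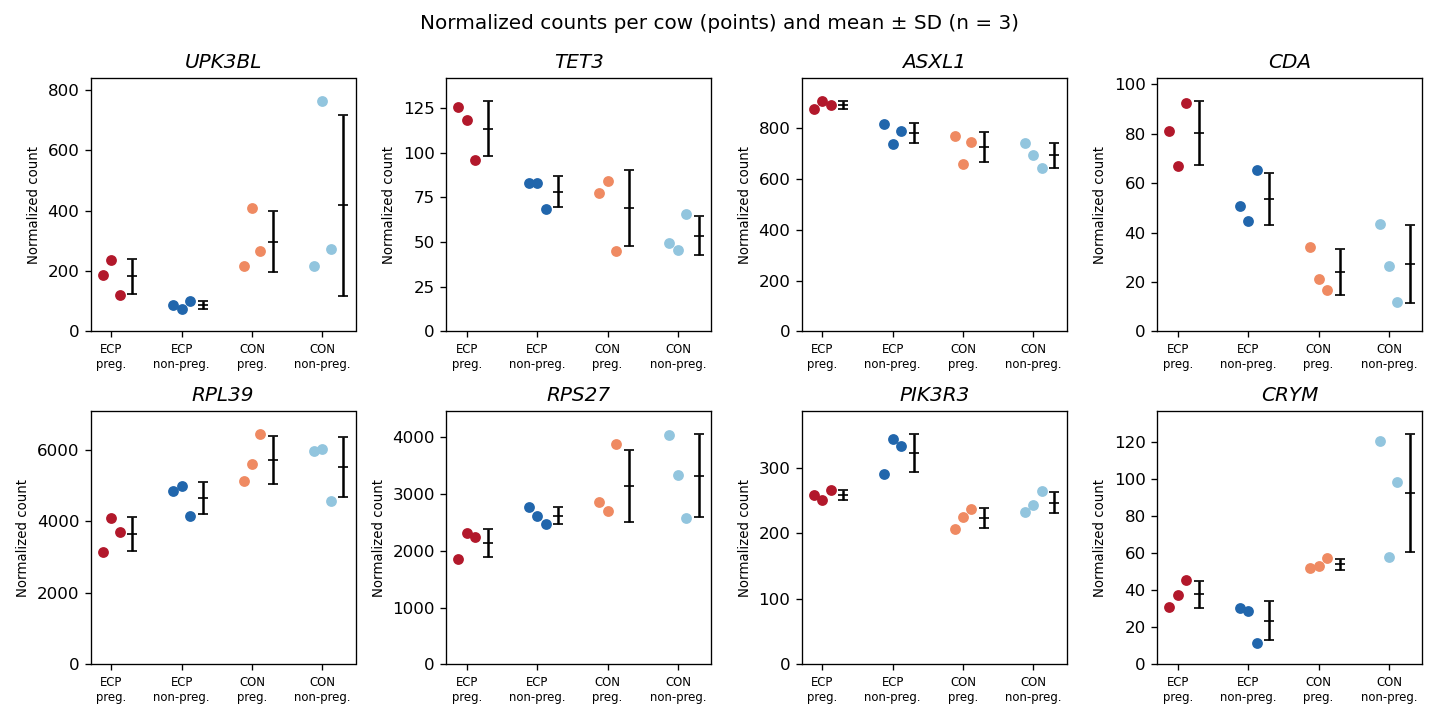
Normalized counts of 8 genes in each of the 12 cows (points), with the mean and SD of each group of 3 beside them, for ECP and CON cows by later outcome, on axes that start at 0. In ECP cows UPK3BL, TET3, ASXL1, CDA and CRYM have all pregnant cows above the non-pregnant cows, and RPL39, RPS27 and PIK3R3 all below.

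Enzymes of detoxification and cofactors had the highest median of any list, 0.35, with 4 of 6 genes higher. With the mapping class in the model the median was 0.27. In CON cows it was -0.25, with 2 genes higher and 4 lower. CDA, cytidine deaminase of pyrimidine salvage, had 81.2, 66.8 and 92.5 normalized counts against 50.9, 44.8 and 65.3, a log2 fold change of 0.59 (SE 0.27). E1010 lay just above E0952, so the groups were barely apart. PDXK, pyridoxal kinase, which makes the active form of vitamin B6, had 2286, 1809 and 2571 against 1655, 1843 and 1774, or 0.34 (SE 0.14), with C317 above E1010, and 0.22 without X156. NUDT17, a nudix hydrolase, was at 0.36 (SE 0.19) with overlapping groups. CCBL2, an aminotransferase of the kynurenine pathway, went the other way, with 275, 195 and 291 against 324, 294 and 351, or -0.34 (SE 0.19), and -0.19 without E1010. CRYM, a protein that binds thyroid hormone, had 30.8, 37.6 and 45.3 against 30.3, 29.0 and 11.6, or 0.68 (SE 0.45), with D160 and B0646 almost level. Without E0952 it was 0.34, and with the mapping class in the model 0.99.

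Signalling genes had the largest lower value. PPP1R1C, an inhibitor of protein phosphatase 1, had 246, 132 and 219 normalized counts in the pregnant cows and 234, 393 and 426 in the non-pregnant cows, a log2 fold change of -0.81 (SE 0.30), with D160 above B0646. PIK3R3, which regulates phosphoinositide 3-kinase, had 259, 251 and 267 against 291, 344 and 334, or -0.32 (SE 0.14). The 3 pregnant cows lay close together and under every non-pregnant cow. PAQR8, a membrane progesterone receptor, had 647, 338 and 354 against 505, 471 and 937, or -0.51 (SE 0.35), with overlap. Its log2 fold change was -0.13 without E0952, -0.87 without D160 and -0.72 with the mapping class in the model. The 13 gene IDs of this list included 8 higher and 5 lower.

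Secreted and matrix proteins were mixed. PI15, a secreted peptidase inhibitor, had 998, 1040 and 759 normalized counts against 617, 763 and 796, or 0.36 (SE 0.16), and X156 lay under both C317 and E0952. FAM20C, a kinase of the secretory pathway, had 514, 540 and 484 against 698, 583 and 568, or -0.26 (SE 0.13), with no overlap, and -0.16 without B0646. Over the 10 genes of this list, 6 were higher and 4 lower.

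Other genes lay lower in all pregnant cows by small amounts. ZUFSP, a deubiquitinase, had a log2 fold change of -0.27 (SE 0.14) and TBC1D9, a protein with a Rab GTPase-activating domain, -0.15 (SE 0.13). C25H16orf91 was at -0.18 (SE 0.10) and LOC100335806 at -0.41 (SE 0.18). C18H19orf33 was higher, with 347.4, 250.5 and 282.2 normalized counts against 205.5, 115.9 and 226.4, or 0.69 (SE 0.27), and 0.44 without C317. TTC7A, part of a lipid kinase complex at the plasma membrane, was at 0.48 (SE 0.25), or 0.19 without X156, with X156 at 949 and every other ECP cow at 420.1 to 622.

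The lists of energy metabolism, RNA processing and protein turnover, of 7, 6 and 6 genes, held 0 genes whose groups were apart, where 9.66% of all genes were, so lists this short say little. In respiration and energy, GPI, an enzyme of glycolysis, was at 0.21 (SE 0.15), and NDUFB3, a subunit of complex I, at -0.14 (SE 0.13), with a list median of 0.00. In transport, STXBP4, which binds syntaxin, was at 0.35 (SE 0.21), and SLC38A1, a glutamine transporter, at 0.32 (SE 0.26), which became 0.12 with the mapping class in the model. Of the 4 leukocyte genes, 2 were higher and 2 lower. SAMSN1, an adaptor of blood cells, had 67.4, 66.8 and 57.4 against 136, 78.1 and 65.3, a log2 fold change of -0.54 (SE 0.33) that was -0.16 without B0646. ALOX5, which starts leukotriene synthesis, was at -0.27 (SE 0.21).

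The same comparison in CON cows, which shares no cow with the ECP comparison, gave 0 genes at an adjusted p of 0.10 and 581 genes, or 3.84%, at an unadjusted p under 0.05 in edgeR. Of the 1463 genes whose ECP groups did not overlap, 587, or 40.1%, had the same direction in CON, against 46.0% of all genes. Of the 24 genes called by DESeq2 in ECP cows, 7 had the same direction in CON. Across the 15139 genes, which are not independent replicates, the log2 fold changes of the ECP and CON comparisons had a Pearson correlation of -0.03 and a Spearman correlation of -0.10. Of the 17 genes with a symbol whose ECP groups did not overlap, 13 had the same direction in CON. ZUFSP was the 1 of them whose CON groups also did not overlap in that direction, as was the case for 30 of the 1463 genes. In 84 of the 1463 the CON groups were apart in the opposite direction.

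The test of whether the difference by outcome itself differed between ECP and CON cows called 0 genes, or 0%, in edgeR. The lowest adjusted p was 0.301, and 797 genes, or 5.26%, had an unadjusted p under 0.05. All ECP cows had displayed estrus and no CON cow had, so ECP and estrus cannot be told apart in this test. DESeq2 called 15 genes in this test and limma voom 0, with 949 and 707 at an unadjusted p under 0.05. Of the genes with a symbol, CRYM and UPK3BL were under 0.05 unadjusted, at an adjusted p of 0.897 in edgeR. For UPK3BL the log2 fold change was 1.07 in ECP and -0.50 (SE 0.47) in CON, where the means were 297 ± 99.8 (SD, n = 3) in pregnant and 418 ± 299 (SD, n = 3) in non-pregnant cows.

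**Figure D5:**
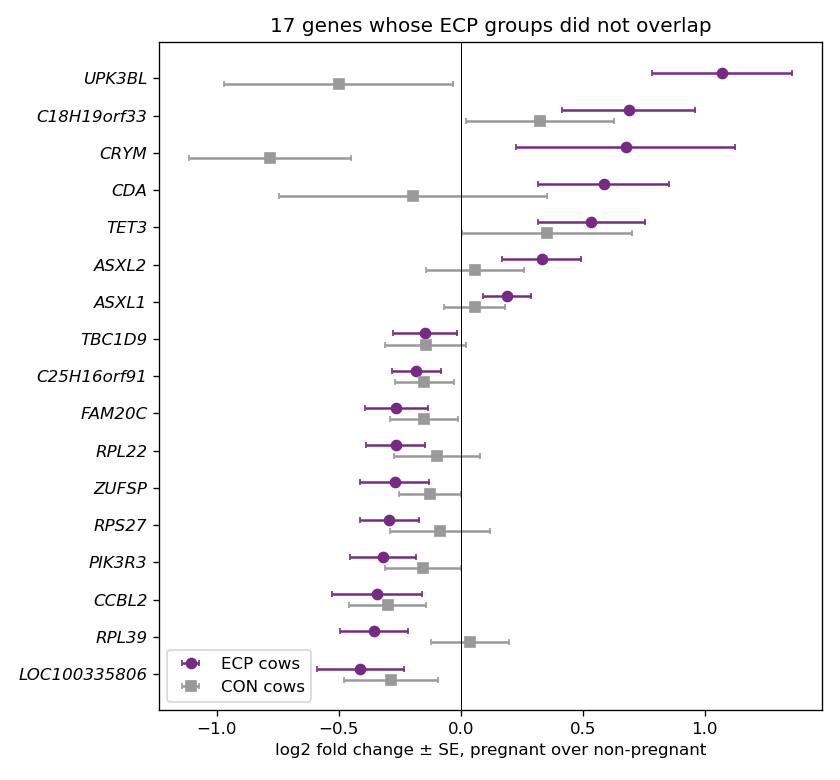
log2 fold change and SE (bars) of pregnant over non-pregnant cows in ECP (circles) and CON (squares) for the 17 genes with a symbol whose ECP groups did not overlap. CRYM, UPK3BL, CDA and RPL39 lie on opposite sides of 0 in ECP and CON, and the other 13 on the same side.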

How the data were processed

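RNA-seq counts of day 6 endometrium from 12 cows were used. Per the labels and the methods of the study, the authors mapped reads with Bowtie2 2.1.0 to the UMD 3.1 assembly, and counted them with HTSeq 0.5.4p2, and the deposited values are raw counts per Ensembl gene ID. The use of strand in counting is not stated in those sources, so counts of overlapping antisense genes are uncertain. Groups and progesterone came from the labels. The 6 ECP cows were compared in R 4.3.3 with edgeR 4.0.16 (TMM, quasi-likelihood test), with Benjamini-Hochberg adjustment over 15139 genes with a mean normalized count above 5 and a threshold of 0.10. The test was checked on simulated data. The SE of a log2 fold change was derived from that test, as its absolute value over the square root of the F statistic. The interaction used all 12 cows. Progesterone was tested with scipy 1.17.1. Total counts were 8637917 to 15015055 per cow, and the common biological coefficient of variation was 0.268, so variation between cows limits most values.

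Alternatives were DESeq2 1.42.0, limma 3.58.1 (voom), other scalings and filters, a threshold of 0.05, all 12 cows, mapping class or progesterone as a covariate, and each cow left out in turn. Named genes were those with a symbol that were among the 10 of lowest p in each direction, all whose groups did not overlap, up to 4 of each functional list, and the 2 gene IDs without symbol of lowest p in each direction. Members and lists were chosen with earlier results of these data known. Symbols came from the supplement of the study, names only, for 123 gene IDs, of which 1 gene is not reported here. No sequences or coordinates were used here.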

Additional observations from a re-analysis of the deposited data

Results flagged for a closer look

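CRYM was the 1 named gene whose groups were apart in opposite directions in ECP and CON cows. Of the 1463 genes whose ECP groups did not overlap, of 15139 tested, 84 had this pattern. In 30 the groups were apart in the same direction in ECP and CON cows. All 3 pregnant ECP cows were above the non-pregnant ECP cows, at 30.8 to 45.3 against 11.6 to 30.3 normalized counts, and all 3 pregnant CON cows were below the non-pregnant CON cows, at 51.8 to 57.5 against 57.9 to 120.6. The difference between the log2 fold changes was 1.45 (SE 0.54), with an adjusted p of 0.897 in edgeR's interaction test, so it did not pass. Without E0952, the lowest of the non-pregnant ECP cows, the log2 fold change in ECP cows went from 0.68 to 0.34. In both treatments the nearest cows of the 2 outcomes were almost level.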

How the results depend on the processing

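For genes called in the ECP cows, DESeq2 gave 24 and every other alternative run gave 0, leaving out each cow included (0 to 0). Genes with an unadjusted p under 0.05 numbered 652 with limma voom, 817 with DESeq2 and 582 to 944 without single cows, against 736. Genes whose groups did not overlap numbered 1435 to 1641 under other scalings and filters, and 2738 to 3260 without single cows, where fewer cows make overlap rarer. For the interaction, DESeq2 called 15 genes, and leaving out single cows gave 0 to 1. The progesterone difference was 0.0317 to 0.872 ng/mL without single cows. Chosen after seeing the data, DESeq2 was refitted in the ECP cows. It called 106 genes with mapping class in the model, 22 of the original 24 among them, and 35 to 158 without single cows, with 10 (without X156) to 19 (without D160) of the 24 among them. Of 591 values of 37 named genes, 581 kept their direction and side of the threshold. Since each gene had an adjusted p of 0.988 or more in the main test, staying above the threshold says little. Leaving out 1 cow moved the log2 fold change of 18 of the 37 by over 1.5 times. The 4 gene IDs without symbol passed with DESeq2. KRT9 turned to -0.11 with mapping class in the model, and was -0.043 to 1.28 without single cows (below 0 without X156). S100G turned to 0.017 with limma voom and to 0.13 with progesterone in the model, and was -0.24 to 0.37 without single cows (above 0 without D160 or E0952). The cause was not tested. No paired analysis was made, since the groups held different cows and the labels pair none of them. With 3 cows a group, differences may have gone undetected, and not only small ones. In edgeR ENSBTAG00000001865, called by DESeq2, had an adjusted p of 0.988 at a log2 fold change of -2.01 with no overlap.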
